A study of Mus musculus with 68 samples.

Results

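The genes described here are 39 mouse genes of glucose use and of the response to low oxygen, taken by symbol from the deposited expression table, and read in pharyngeal arch 1 (PA1) and arch 2 (PA2) of embryos from E9.0 to E10.5. They comprise 13 genes of glucose uptake and the upper part of glycolysis, 6 of lower glycolysis, 6 of pyruvate and lactate handling, 10 hypoxia-induced genes, and 4 genes of the hypoxia-inducible factor and its oxygen sensors. The symbols fell on 40 of the 21948 rows of the table, because Aldoa has a second identifier, ENSMUSG00000114515, at 0.347 to 2.29 CPM. All 40 rows were among the 18428 rows with at least 1 CPM in at least 3 libraries. CPM, counts per 1e6 reads of the library, is the deposited unit, here after the submitters' scaling of library sizes.

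Glycolysis splits glucose into pyruvate, which is either reduced to lactate and exported or passed to the mitochondria. Under low oxygen, prolyl hydroxylases (the Egln enzymes) stop marking HIF-1 alpha for destruction, and the factor then activates glucose transporters, glycolytic enzymes, lactate export and genes such as Vegfa and Bnip3 through DNA sites with the core ACGTG or GCGTG. Mouse embryos of these days are changing from a largely glycolytic metabolism towards oxygen use as the chorioallantoic circulation is set up. The pharyngeal arches are outgrowths of the head filled with neural crest mesenchyme around a mesodermal core, with surface ectoderm outside and pharyngeal endoderm inside. PA1 gives rise to the jaws and PA2 to hyoid structures.

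The 68 libraries were made from polyadenylated RNA of single hand-dissected arches of 35 embryos of a CBA/Ca/J and C57BL/10 cross. 33 embryos gave both arches. There are 16 groups of 3 to 5 libraries: PA1 or PA2, from embryos labelled wildtype or Hoxa2-/-, at 4 stages from E9.0 to E10.5. Hoxa2 is the homeobox gene that sets the identity of PA2, and the label Hoxa2-/- stands for embryos without a working copy in any cell. Whole arches were sequenced, so each value averages over mesenchyme, epithelium, endothelium and blood, and in such bulk samples fewer cells of a type and less RNA per cell cannot be told apart.

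The libraries hold 8912251 to 20619153 reads. Hoxa2 RNA was at or below 0.93 CPM in every PA1 library and at 20.2 to 63.3 CPM in wildtype PA2. It was at 16.8 to 147 CPM in PA2 labelled Hoxa2-/-, hence not lower with the label, and where its reads lie relative to the deleted part is not given in the sources used here. For that reason the text speaks of libraries labelled Hoxa2-/-. At E10.0 the comparison of the labels called 0% of all genes in PA1 and 0.0814% in PA2, against 2.08% to 23.6% at the other stages. Earlier results of these data placed the wildtype E10.0 libraries with those labelled Hoxa2-/-, apart from the other wildtype libraries, so at every stage but E10.0 the label and this division cannot be told apart. Wildtype E10.0 values are given but not used in wildtype stage tests. Wildtype PA2 E9.0 replicate 2 held 74780 CPM of erythroid marker RNA, far above the other libraries of its group, and library 3 of PA1 labelled Hoxa2-/- at E9.5 stood apart in epithelial RNA (1370 CPM).

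The glycolytic programme fell from E9.0 to E10.5 in both arches and under both labels, while lactate dehydrogenase B rose. The members together made up 2.52% of 1e6 CPM in wildtype PA1 at E9.0 (25167 ± 822, SD, n = 5) and 1.32% at E10.5 (13219 ± 451, SD, n = 3). In wildtype PA2 the sum went from 23852 to 12998 CPM. In PA1 labelled Hoxa2-/- it went from 25944 to 15097 CPM, and in PA2 from 26070 to 15565 CPM. No E10.5 group overlapped the E9.0 group of its arch and label in this sum.

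In limma's test on log2(CPM + 1) over all 18428 genes, with Benjamini-Hochberg adjusted p of at most 0.05 as the threshold, 26 of the 40 rows differed between E10.5 and E9.0 in wildtype PA1, where 42.5% of all genes did. 22 fell and 4 rose, beside 21.5% and 21% of all genes. In wildtype PA2, 22 fell and 3 rose, beside 19.4% and 17.5% of all genes (36.9% in either direction). In PA1 labelled Hoxa2-/-, 23 fell and 4 rose, beside 16.5% and 14.8% of all genes (31.2% in either direction). In PA2 labelled Hoxa2-/-, 24 fell and 3 rose, beside 15.1% and 15.8% of all genes (30.9% in either direction). The median difference over the rows was -0.48, -0.55, -0.53 and -0.70 on the log2 scale in these 4 comparisons, and the median over all genes was 0.00, -0.01, -0.02 and 0.01. 16 members fell in all 4 comparisons: Slc2a1, Slc2a3, Gpi1, Pfkl, Aldoa, Tpi1, Pgk1, Pgam1, Eno1, Pkm, Ldha, Slc16a1, Slc16a3, Pdk1, Vegfa and Higd1a. Ldhb, Pfkm and Ddit4 rose in all 4. 14 members passed in 1 to 3 of the comparisons, and no member passed in opposite directions. 7 rows passed in none: the second Aldoa identifier, Ankrd37, Bnip3, Epas1, Hk1, Pdk3 and Pfkfb4. Fold changes below come from log2(CPM + 1), so those of genes at a few CPM are understated.

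**Figure D1:**
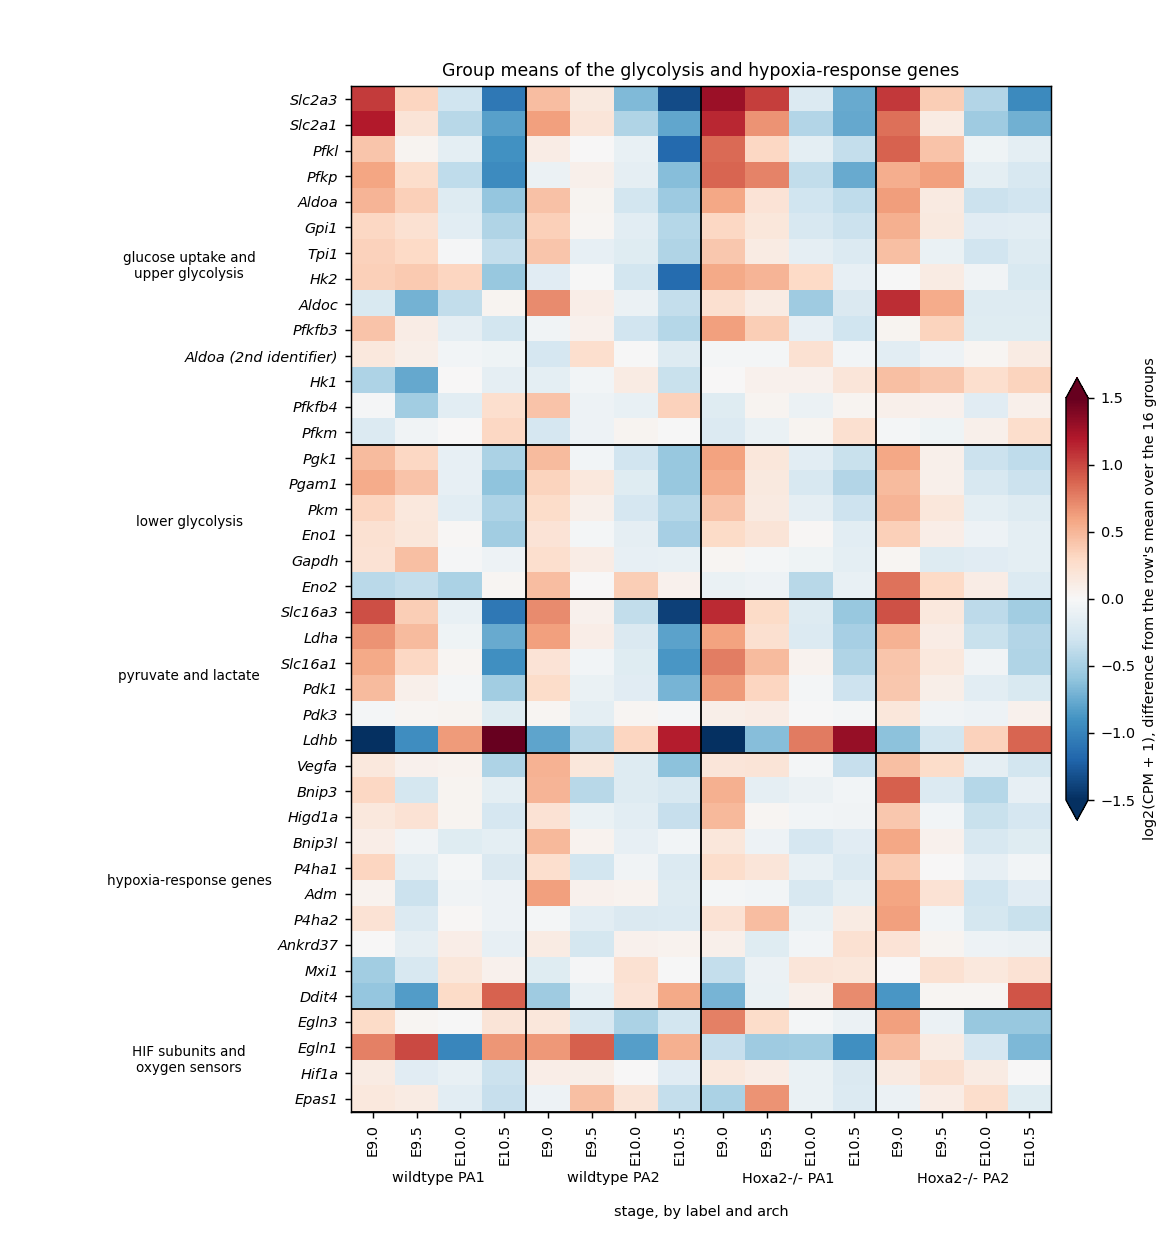
Level of each of the 40 rows in each of the 16 groups, as the mean log2(CPM + 1) of the group minus the mean of the row over all groups, with values beyond the ends of the colour bar shown in its end colours. Rows are ordered by role and columns by arch, label and stage, and the colour of most glycolytic rows turns from high at E9.0 to low at E10.5 while that of Ldhb runs the other way.

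**Figure D2:**
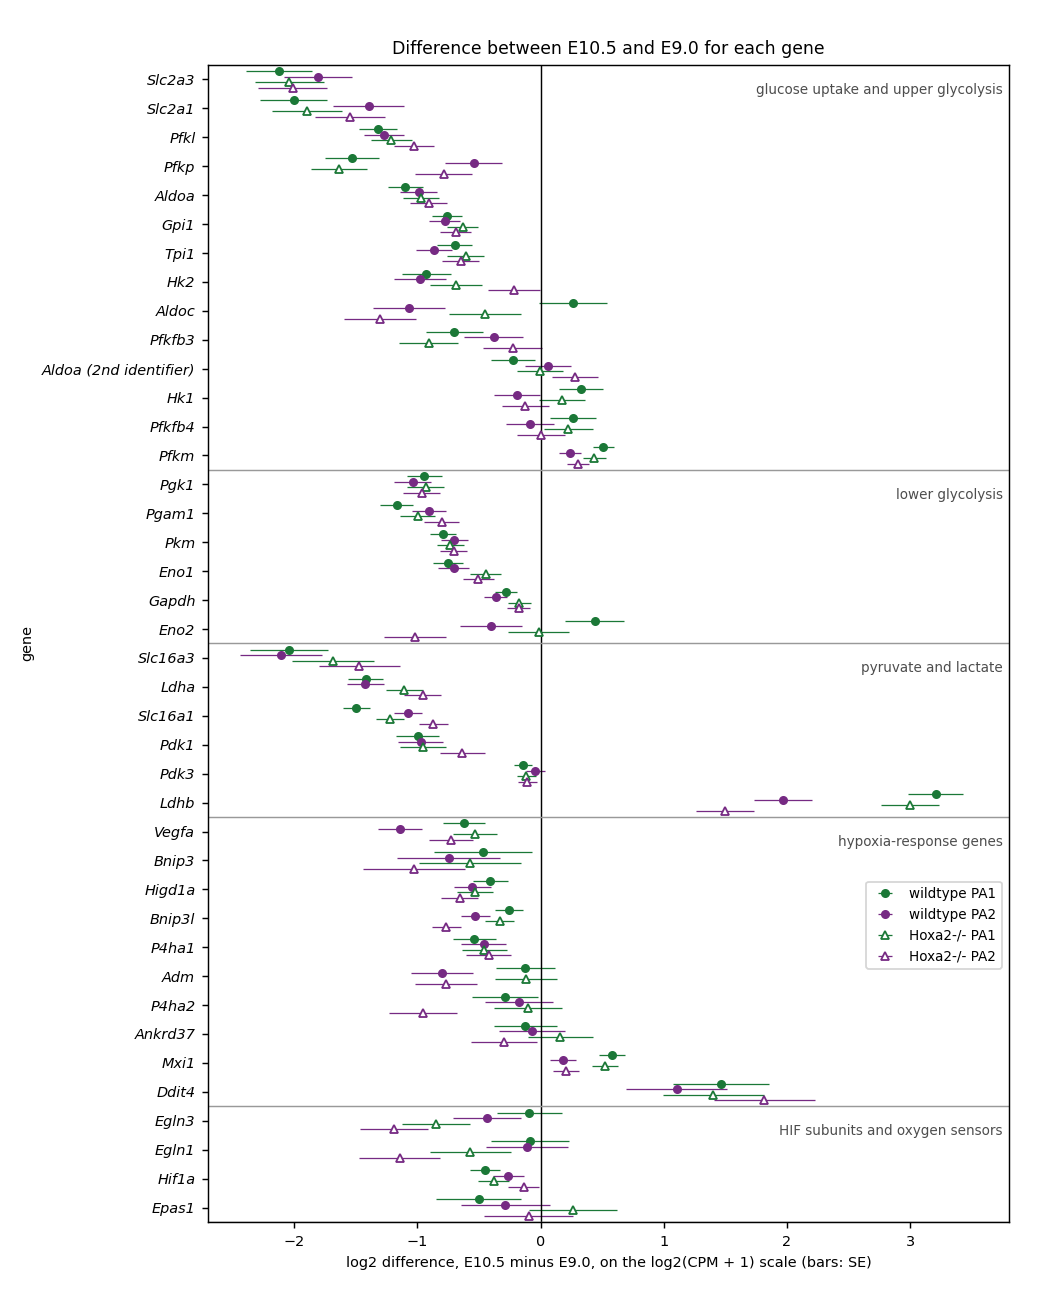
Log2 difference between E10.5 and E9.0 for each row in wildtype PA1, wildtype PA2 and both arches labelled Hoxa2-/-, each point with its standard error from limma. Slc2a3, Slc16a3 and Slc2a1 lie farthest to the left and Ldhb farthest to the right in wildtype PA1.

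The glucose transporters carried the steepest fall among the genes of uptake and upper glycolysis. Slc2a1 (GLUT1, ENSMUSG00000028645), the broadly expressed glucose carrier of embryonic tissue, stood at 516, 347, 527, 824 and 431 CPM in the 5 wildtype PA1 libraries at E9.0. At E9.5 it stood at 236, 294, 263, 262 and 219 CPM, and at E10.5 at 139, 117 and 122 CPM. No 2 of these 3 stages overlapped. It was 4.01-fold lower at E10.5 than at E9.0 (SE 0.27 on the log2 scale, limma's Benjamini-Hochberg adjusted p = 2.1e-08). In wildtype PA2 it went from 305 to 389 CPM at E9.0 to 114 to 151 CPM at E10.5, 2.63-fold lower. The 250 bases before its start, from RefSeq (GRCm38.p6, chr4:119108495-119108744, plus strand), are shown because they hold both forms of the core, in capitals: CACGC, which is GCGTG on the other strand, and ACGTG.
Slc2a1: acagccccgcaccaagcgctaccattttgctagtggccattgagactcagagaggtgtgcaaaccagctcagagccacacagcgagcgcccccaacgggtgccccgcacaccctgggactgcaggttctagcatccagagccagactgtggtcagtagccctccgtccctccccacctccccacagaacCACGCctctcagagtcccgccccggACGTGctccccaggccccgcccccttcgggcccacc

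Slc2a3 (GLUT3), the high-affinity glucose carrier, was higher than Slc2a1 in CPM in every group mean and fell with it. Its values in wildtype PA1 were 942, 654, 891, 1373 and 811 CPM at E9.0 and 213, 192 and 218 CPM at E10.5, which is 4.36-fold lower (log2 difference -2.12, SE 0.27, limma's adjusted p = 2.6e-09). The fall was 3.50-fold in wildtype PA2, and 4.11-fold in PA1 and 4.03-fold in PA2 with the label Hoxa2-/-. Per kilobase of exon the 2 carriers were close in wildtype PA1 at E9.0, at 151 CPM per kilobase for Slc2a1 and 129 for Slc2a3, and at E10.5 they stood at 35.9 and 28.6. The log2 ratio of Slc2a3 to Slc2a1 overlapped between E9.0 and E10.5 in wildtype PA1, wildtype PA2 and PA1 labelled Hoxa2-/-. It was 0.47 lower at E10.5, with no overlap, in PA2 labelled Hoxa2-/-.

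Of the 14 rows of uptake and upper glycolysis, 9 fell and 1 rose in wildtype PA1, and 8 fell and 1 rose in wildtype PA2. With the label Hoxa2-/-, 9 fell and 1 rose in PA1 and 8 fell and 1 rose in PA2. Beside these, 21.5%, 19.4%, 16.5% and 15.1% of all genes fell and 21%, 17.5%, 14.8% and 15.8% rose, in the same order. Phosphofructokinase, which commits sugar to glycolysis, changed in the proportions of its subunit RNAs, and its protein was not measured. Pfkl, its liver-type subunit and the most abundant of the 3 here, stood at 908, 896, 705, 728 and 899 CPM in wildtype PA1 at E9.0 against 310, 323 and 354 CPM at E10.5 (2.50-fold lower). Pfkm, the muscle-type subunit, stood at 28.4 to 36.5 CPM at E9.0 and at 45.2 to 49.5 CPM at E10.5, a rise of 0.51 on the log2 scale (SE 0.09, limma's adjusted p = 2.9e-06). The log2 ratio of Pfkm to Pfkl was higher at E10.5 by 1.83, 1.51, 1.65 and 1.33 in wildtype PA1, wildtype PA2, and PA1 and PA2 labelled Hoxa2-/-, with no overlap between the stages in any of them. In wildtype PA2 the rise of Pfkm itself was 0.24, and it no longer passed without replicate 4 or 5 of E9.0 or replicate 2 or 3 of E10.5, where the adjusted p was 0.071 to 0.18. In PA2 labelled Hoxa2-/- it rose by 0.30 and no longer passed without replicate 1 of E10.5 (adjusted p = 0.063).

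Pfkp, the platelet-type subunit, fell 2.90-fold in wildtype PA1, from 32.0 to 34.4 CPM down to 9.44 to 11.9 CPM, and 3.11-fold in PA1 labelled Hoxa2-/-. In PA2 its difference was -0.79 with that label and -0.54 in wildtype, where it did not pass (limma's adjusted p = 0.055). Hk2, an inducible hexokinase of growing and insulin-responsive cells, fell by 0.93 in wildtype PA1 and by 0.98 in wildtype PA2 on the log2 scale. It fell by 0.69 in PA1 labelled Hoxa2-/-, and its difference of -0.22 in PA2 with that label did not pass (limma's adjusted p = 0.47). Hk1, the constitutive hexokinase, passed in none of the 4 comparisons. Gpi1 (glucose phosphate isomerase), Aldoa (aldolase A) and Tpi1 (triose phosphate isomerase) fell in all 4, by 0.63 to 0.78, 0.91 to 1.10 and 0.61 to 0.87. Aldoc, a minor aldolase at 0.589 to 8.69 CPM, fell by 1.07 and 1.30 in PA2 of the 2 labels and did not pass in PA1 (0.26 and -0.45). Pfkfb3, which makes the activator of phosphofructokinase, fell by 0.70 in wildtype PA1, but without replicate 2 of wildtype PA1 E10.5 its adjusted p was 0.059. It fell by 0.91 in PA1 labelled Hoxa2-/- (limma's adjusted p = 0.0027). Its differences of -0.38 in wildtype PA2 and -0.23 in PA2 labelled Hoxa2-/- did not pass. Pfkfb4, the other enzyme of that kind, stayed within differences of -0.08 to 0.27 and passed in none.

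The abundant enzymes of lower glycolysis were lower at E10.5, with the smallest differences for Gapdh. Of the 6 genes of lower glycolysis, 5 fell in wildtype PA1 and 5 in wildtype PA2. With the label Hoxa2-/-, 4 fell in PA1 and 5 in PA2, and none rose in any comparison. The shares of all genes were 21.5%, 19.4%, 16.5% and 15.1% lower and 21%, 17.5%, 14.8% and 15.8% higher, in the same order. Pgam1, phosphoglycerate mutase, stood at 1562, 1428, 1552, 1553 and 1468 CPM in wildtype PA1 at E9.0 against 670, 659 and 688 CPM at E10.5, a difference of -1.17 (SE 0.13, limma's adjusted p = 2.7e-10). Pgk1, phosphoglycerate kinase, fell by 0.93 to 1.04 over the 4 comparisons, Pkm, pyruvate kinase, by 0.70 to 0.79 and Eno1, the general enolase, by 0.45 to 0.75. Eno2, the neuronal enolase, was close to the detection limit, at 0 to 4.09 CPM, where 3 reads are 0.328 CPM in the library of lowest depth. Its fall of 1.02 in PA2 labelled Hoxa2-/- (limma's adjusted p = 0.0011) is among the 5 falls counted there. Its differences of 0.44, -0.40 and -0.02 in wildtype PA1, wildtype PA2 and PA1 labelled Hoxa2-/- did not pass.

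Gapdh, the dehydrogenase often used as a reference gene, stood at 1331, 1119, 1296, 1161 and 1233 CPM in wildtype PA1 at E9.0 against 1116, 966 and 944 CPM at E10.5. The E10.5 libraries were all below those of E9.0. Its difference was -0.28 (SE 0.09, limma's adjusted p = 0.0086), and it no longer passed without wildtype PA1 E10.5 replicate 3 (adjusted p = 0.065). In wildtype PA2 Gapdh fell by 0.36, and with the label Hoxa2-/- its differences of -0.17 and -0.18 did not pass. Several of these enzymes (Gapdh, Pgk1, Eno1, Aldoa, Ldha and Pgam1 among them) have near-identical processed copies in the genome, and how the submitters counted reads that fit more than 1 place is not given in the sources used here, so their levels are uncertain to that extent.

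Lactate metabolism held the member with the largest rise, Ldhb, while Ldha and the lactate carriers fell. Ldha (ENSMUSG00000063229), the lactate dehydrogenase subunit that favours lactate formation, was the most abundant member per length, at 1920 CPM per kilobase in wildtype PA1 at E9.0. It stood there at 6391, 6020, 6495, 6563 and 6315 CPM and at E10.5 at 2407, 2185 and 2535 CPM. It was 2.68-fold lower in wildtype PA1 (log2 difference -1.42, SE 0.14, limma's adjusted p = 6.9e-12), 2.68-fold lower in wildtype PA2, and 2.15-fold and 1.94-fold lower in PA1 and PA2 labelled Hoxa2-/-. Ldhb (ENSMUSG00000030246), the subunit that favours the use of lactate and is typical of oxidative tissue, stood at 56.0, 78.9, 54.2, 59.3 and 56.6 CPM in wildtype PA1 at E9.0. It then stood at 104, 102, 65.3, 101 and 141 CPM at E9.5 and at 538, 601 and 559 CPM at E10.5. That is 9.22-fold higher at E10.5 than at E9.0 (log2 difference 3.21, SE 0.23, limma's adjusted p = 3e-17), with no overlap of those 2 stages. The rise was 3.91-fold in wildtype PA2, 7.98-fold in PA1 labelled Hoxa2-/- and 2.82-fold in PA2 with that label.
The stretches before the starts of the 2 genes are set side by side because these paralogues moved in opposite directions. They come from RefSeq (GRCm38.p6), at chr7:46845554-46845803 on the plus strand for Ldha and chr6:142507958-142508207 on the minus strand for Ldhb, with the letters ACGTG or GCGTG of either strand in capitals. The Ldha stretch shown holds 5 matches, 2 pairs of them on both strands of CACGTG, and the Ldhb stretch holds 1. A second Ldha start has a stretch (chr7:46846832-46847081, not shown) with 1 match and no CACGTG, as many matches as that of Ldhb.
Ldha: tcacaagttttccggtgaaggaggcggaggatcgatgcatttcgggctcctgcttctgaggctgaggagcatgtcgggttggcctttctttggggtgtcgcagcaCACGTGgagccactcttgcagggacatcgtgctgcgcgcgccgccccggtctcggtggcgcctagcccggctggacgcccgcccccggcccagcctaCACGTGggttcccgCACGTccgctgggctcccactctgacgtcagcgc
Ldhb: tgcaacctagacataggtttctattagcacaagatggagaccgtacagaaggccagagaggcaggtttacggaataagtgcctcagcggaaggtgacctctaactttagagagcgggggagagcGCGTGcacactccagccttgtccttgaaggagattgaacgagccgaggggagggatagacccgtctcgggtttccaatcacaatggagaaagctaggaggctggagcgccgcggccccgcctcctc

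Ldhb made up 0.955% ± 0.191 (SD, n = 5) of the summed CPM of Ldha and Ldhb in wildtype PA1 at E9.0, and 19.3% ± 1.97 (SD, n = 3) at E10.5. Between them it was 1.89% at E9.5 and then 7.58%. In wildtype PA2 the share went from 1.77% ± 0.255 (SD, n = 4) to 16% ± 2.75 (SD, n = 3). In PA1 labelled Hoxa2-/- it went from 0.994% to 14.6%, and in PA2 with that label from 2.13% to 10.7%. The highest library at E9.0 in any group was at 2.41%, and the lowest at E10.5 was at 9.29%. Ldha thus remained the larger of the pair in every library at E10.5, with Ldhb at 360 and Ldha at 718 CPM per kilobase in wildtype PA1.

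**Figure D3:**
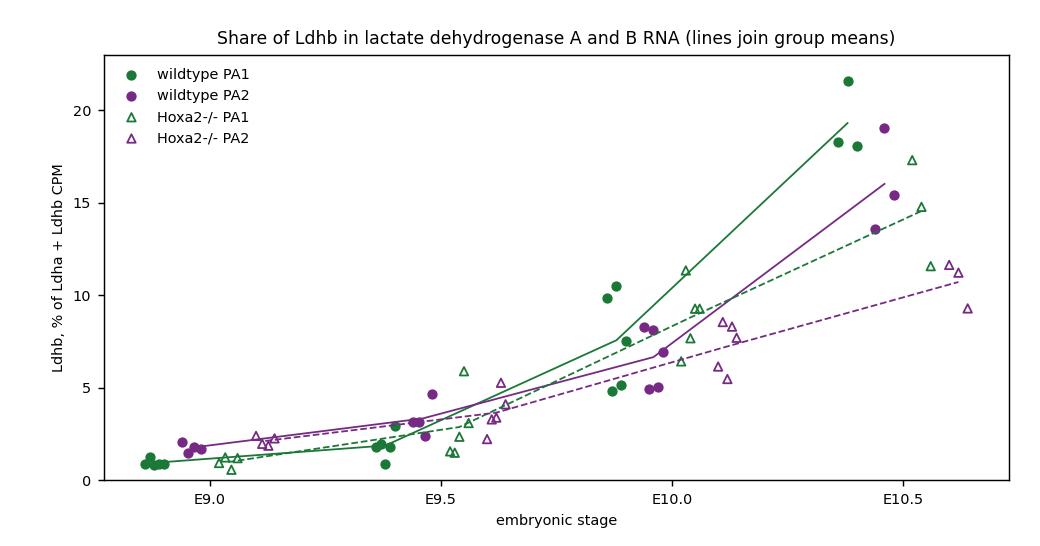
Ldhb as a percentage of the summed CPM of Ldha and Ldhb in each library (points) with the group mean (line), by stage, for PA1 and PA2 and both labels. The share was 0.955% in wildtype PA1 at E9.0 and 19.3% at E10.5, and was higher at each later stage in all 4 series of group means.

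The monocarboxylate carriers fell as well. Slc16a3 (MCT4, ENSMUSG00000025161), the low-affinity carrier that exports lactate from glycolytic cells, stood at 253, 238, 220, 238 and 270 CPM in wildtype PA1 at E9.0, and at 155, 176, 187, 162 and 127 CPM at E9.5. At E10.5 it stood at 57.5, 54.4 and 63.7 CPM, 4.11-fold below E9.0 (log2 difference -2.04, SE 0.32, limma's adjusted p = 4.1e-07). In wildtype PA2 its libraries were at 223, 211, 189 and 192 CPM at E9.0 against 42.1, 45.0 and 52.5 CPM at E10.5, 4.31-fold lower. With the label Hoxa2-/- the fall was 3.21-fold in PA1 and 2.77-fold in PA2. Slc16a1 (MCT1), the more general carrier, fell by 1.50, 1.08, 1.22 and 0.87 on the log2 scale in wildtype PA1, wildtype PA2, and PA1 and PA2 labelled Hoxa2-/-. The ratio of Slc16a3 to Slc16a1 was lower at E10.5 with no overlap in all 4, by 0.54, 1.03, 0.46 and 0.60 on the log2 scale. The RefSeq stretch before the start of Slc16a3 (GRCm38.p6, chr11:120948817-120949066, plus strand) is shown for its pair of ACGTG matches, in capitals, 27 and 14 bases before the start.
Slc16a3: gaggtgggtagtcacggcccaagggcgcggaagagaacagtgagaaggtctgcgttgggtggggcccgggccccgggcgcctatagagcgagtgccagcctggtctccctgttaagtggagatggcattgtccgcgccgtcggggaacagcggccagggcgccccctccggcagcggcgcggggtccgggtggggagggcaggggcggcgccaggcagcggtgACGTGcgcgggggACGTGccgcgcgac

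**Figure D4:**
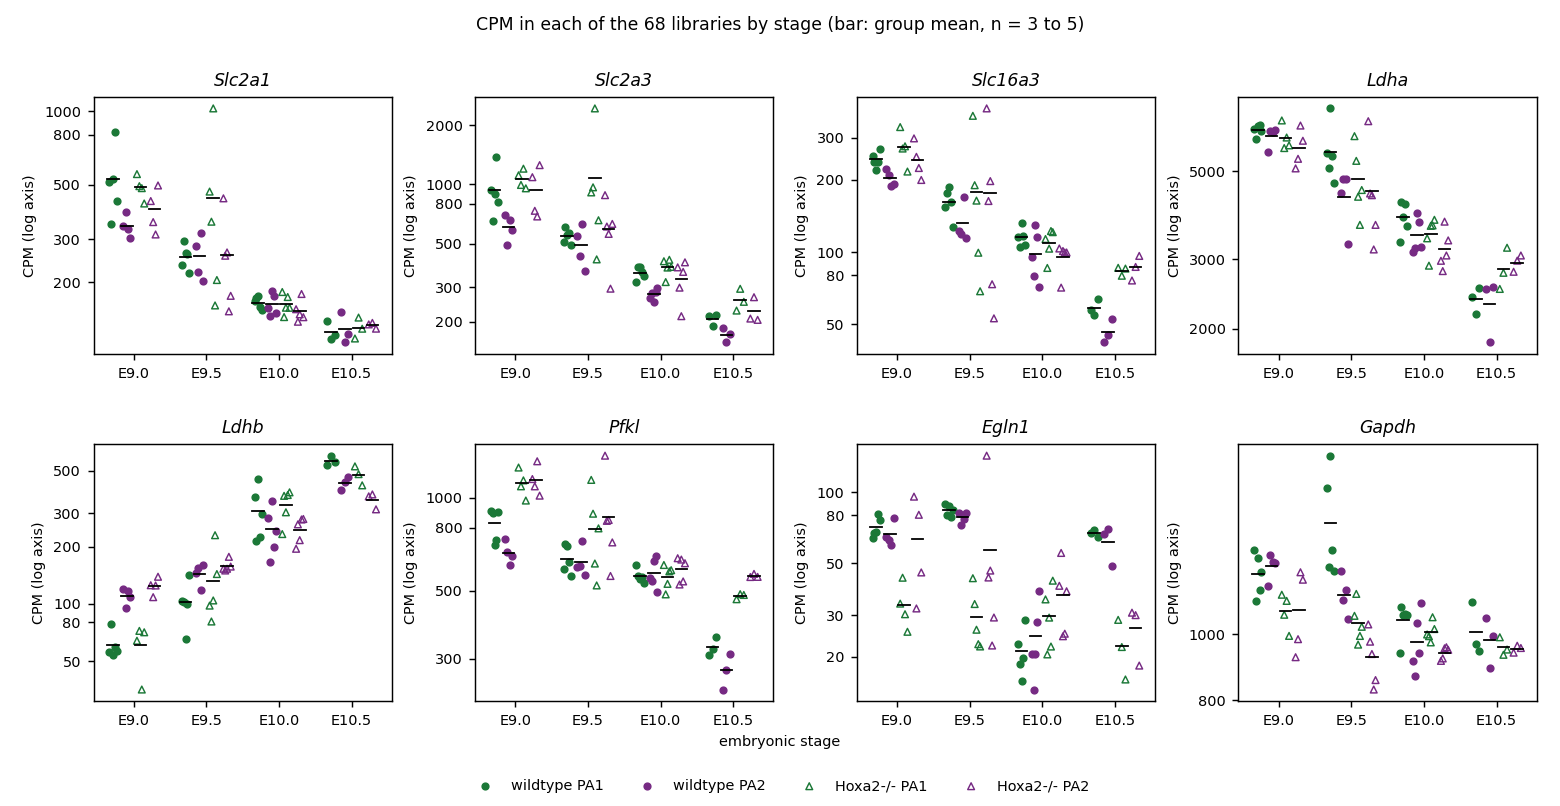
CPM of Slc2a1, Slc2a3, Slc16a3, Ldha, Ldhb, Pfkl, Egln1 and Gapdh in every library by stage, arch and label, on log axes, with a bar at each group mean. The E9.0 and E10.5 points of Slc2a1, Slc16a3, Ldha and Ldhb do not overlap within an arch and label, and the wildtype Egln1 points at E10.0 lie below the other wildtype stages.

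Pdk1 and Pdk3 are kinases that switch off pyruvate dehydrogenase and so hold pyruvate back from the mitochondria, and Pdk1 is a known HIF target. Pdk1 stood at 204, 240, 236, 221 and 231 CPM in wildtype PA1 at E9.0 against 110, 100 and 129 CPM at E10.5 (2.00-fold lower, limma's adjusted p = 5.1e-06), and it fell by 0.63 to 1.00 over the 4 comparisons. Pdk3 stood at 95.4 to 141 CPM over all libraries and passed in none. The ratio of Pdk3 to Pdk1 was higher at E10.5 by 0.85, 0.93, 0.84 and 0.53 with no overlap.

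The hypoxia-induced genes moved in both directions. Of the 10, 3 fell and 2 rose in wildtype PA1, and 5 fell and 1 rose in wildtype PA2. With the label Hoxa2-/-, 4 fell and 2 rose in PA1, and 5 fell and 1 rose in PA2. Of all genes, 21.5%, 19.4%, 16.5% and 15.1% fell and 21%, 17.5%, 14.8% and 15.8% rose, in the same order. In wildtype PA1 the counts of these 10 genes were thus close to the shares of all genes. Vegfa, the growth factor of blood vessels, stood at 95.6, 48.2, 79.9 and 70.7 CPM in wildtype PA2 at E9.0 against 27.2, 35.2 and 33.8 CPM at E10.5, a difference of -1.14 (SE 0.18, limma's adjusted p = 5.7e-07). It fell by 0.62 in wildtype PA1, by 0.73 in PA2 labelled Hoxa2-/- and by 0.53 in PA1 labelled Hoxa2-/-. In the latter its adjusted p rose to 0.050, 0.061 and 0.051 without E9.0 replicate 2, E10.5 replicate 2 or E10.5 replicate 3. Higd1a, a small mitochondrial inner membrane protein, fell by 0.41 to 0.66 in the 4 comparisons, and in wildtype PA1 it no longer passed without E9.0 replicate 3 or E10.5 replicate 2 (adjusted p = 0.053 and 0.069).

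Bnip3l (NIX), a receptor for the removal of mitochondria, fell by 0.53 in wildtype PA2 and 0.77 in PA2 labelled Hoxa2-/-, and its difference of -0.26 in wildtype PA1 did not pass. In PA1 labelled Hoxa2-/- it fell by 0.33 but had an adjusted p of 0.089, 0.090 and 0.068 without E9.0 replicate 1, E10.5 replicate 2 or E10.5 replicate 3. Bnip3, its paralogue, differed by -0.47, -0.75, -0.57 and -1.02 in wildtype PA1, wildtype PA2, PA1 and PA2 labelled Hoxa2-/-, and limma's adjusted p was 0.36, 0.15, 0.31 and 0.053. Its standard errors of 0.40 to 0.41 were among the largest of the members. Ddit4 (REDD1), an inhibitor of mTORC1, rose from 0.923 to 4.22 CPM in wildtype PA1 at E9.0 to 6.32 to 6.92 CPM at E10.5, by 1.46 on the log2 scale, and by 1.40 and 1.82 in PA1 and PA2 labelled Hoxa2-/-. In wildtype PA2 the rise of 1.10 no longer passed without E9.0 replicate 2 or 4 or E10.5 replicate 2 or 3 (adjusted p = 0.058 to 0.14). Mxi1, a MAX partner that opposes MYC, rose by 0.58 in wildtype PA1 and by 0.52 in PA1 labelled Hoxa2-/-, and its differences of 0.18 and 0.20 in PA2 did not pass.

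P4ha1 and P4ha2 are collagen prolyl hydroxylases. P4ha1 fell by 0.54 in wildtype PA1, from 87.9 to 143 CPM down to 72.3 to 75 CPM. Its difference was -0.46 in wildtype PA2 and in PA1 labelled Hoxa2-/-, near the threshold (limma's adjusted p = 0.041 and 0.048). The first no longer passed without wildtype PA2 E9.0 replicate 1 or 4 or E10.5 replicate 2 or 3 (adjusted p = 0.063 to 0.19), and the second without any of its 7 libraries (adjusted p = 0.052 to 0.16). P4ha2 fell by 0.95 in PA2 labelled Hoxa2-/-, with an adjusted p of 0.055 without E9.0 replicate 4. Adm (adrenomedullin), at 0.0662 to 2.77 CPM, and Ankrd37, at 1.90 to 11.2 CPM, were the least abundant of the hypoxia-induced genes beside Ddit4. Adm fell by 0.80 in wildtype PA2, and by 0.77 in PA2 labelled Hoxa2-/-, where its adjusted p was 0.060, 0.11 and 0.088 without E9.0 replicate 1, E9.0 replicate 4 or E10.5 replicate 2. Ankrd37 passed in none.

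RNA of the factor itself moved little. Hif1a, the oxygen-regulated subunit of HIF-1, stood at 245 to 283 CPM in wildtype PA1 at E9.0 against 189, 197 and 200 CPM at E10.5, a fall of 0.45 (SE 0.12, limma's adjusted p = 0.0021). It fell by 0.38 in PA1 labelled Hoxa2-/-, with an adjusted p of 0.18 without E10.5 replicate 1, and its differences of -0.26 and -0.14 in PA2 did not pass. Epas1 (HIF-2 alpha), typical of endothelium, stood at 1.80 to 11.4 CPM in all libraries except PA1 labelled Hoxa2-/- E9.5 replicate 3, at 35.4 CPM, and passed in none. Egln3, a hydroxylase that HIF induces, fell by 0.85 and 1.19 in PA1 and PA2 labelled Hoxa2-/-, and its differences of -0.09 and -0.44 in wildtype did not pass. Without PA1 labelled Hoxa2-/- E10.5 replicate 2 the adjusted p of the PA1 fall was 0.15. Whether HIF protein changed was not measured.

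In wildtype arches more members passed from E9.5 to E10.5 than in the shorter step from E9.0 to E9.5. In wildtype PA1, 20 rows fell and 7 rose in that step, beside 21.1% and 19.8% of all genes (40.9% in either direction). In wildtype PA2, 16 fell and 1 rose, beside 18.3% and 16.1% of all genes (34.3% in either direction). Slc2a1 was already lower at E9.5 than at E9.0 in wildtype PA1, by 1.00 on the log2 scale (limma's adjusted p = 0.0080), and it fell by a further 1.01 to E10.5. At an unadjusted p under 0.05 there were 13 members in the first step and 27 in the second in PA1, and 20 and 24 in PA2. Counts past the threshold for the step from E9.0 to E9.5 were small and moved with single libraries. They were 5 in wildtype PA1 (6.73% of all genes called), 1 to 9 with a library left out, and 5 in wildtype PA2 (6.68% of all genes called), 0 to 7 with a library left out. The lowest value for PA1 came without E9.0 replicate 3 or E9.5 replicate 1 and the highest without E9.5 replicate 2, and the value of 0 for PA2 came without E9.5 replicate 5. With the label Hoxa2-/-, PA1 had 4 calls from E9.0 to E9.5 (2.85% of all genes), 10 from E9.5 to E10.0 (4.4% of all genes) and 1 from E10.0 to E10.5 (0.298% of all genes), the fall of Slc16a1 by 0.50, which did not pass without E10.5 replicate 1 (adjusted p = 0.57) or without E10.0 replicate 1, 3, 4 or 5 (0.050 to 0.063).

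PA2 labelled Hoxa2-/- had 16 calls from E9.0 to E9.5, all lower, where 6.94% of all genes were lower and 9.98% higher (16.9% in either direction). It had 8 from E9.5 to E10.0, 7 of them lower, where 2.83% of all genes were lower and 1.74% higher (4.57% in either direction). A fit of the 2 compared groups alone gave 0 members for the first of these steps and 1, which was higher, for the second, and edgeR gave 9 and 13. The 16 became 25 without E9.5 replicate 1, 9 without E9.0 replicate 4 or E9.5 replicate 5, 4 without E9.5 replicate 4 and 3 without E9.0 replicate 3. The 8 became 0 without E9.5 replicate 1, 17 without E9.5 replicate 4, 1 without E9.5 replicate 2 or E10.0 replicate 2, and 3 to 5 without E9.5 replicate 3, E10.0 replicate 3 or E10.0 replicate 4. In PA1 with this label, the compared groups alone gave 0 members from E9.0 to E9.5 and 1 from E9.5 to E10.0. The 10 calls became 5 and 6 without E9.5 replicates 1 and 2, and the 4 calls became 10 without E9.5 replicate 1 and 1 or 2 without E9.0 replicate 1, E9.0 replicate 3, E9.5 replicate 3 or E9.5 replicate 4. From E10.0 to E10.5 PA2 had 0 calls by limma, 4 members at an unadjusted p under 0.05, and 0 calls by edgeR (0.239% of all genes called by limma). The compared groups alone gave 1 there. The E9.5 libraries with this label were widely spread. Slc16a3 stood at 370, 190, 164, 99.4 and 68.7 CPM in PA1 and at 398, 163, 198, 73.4 and 52.9 CPM in PA2.

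Markers of the cell types in an arch moved over the same days. The summed CPM of 8 epithelial markers ran from 750 to 1121 in wildtype PA1 at E9.0 and from 481 to 563 at E10.5, with 4 of the 8 lower and 3 higher. The 8 endothelial markers summed to 295 to 364 CPM at E9.0 and 168 to 195 at E10.5, with 6 lower and 1 higher. The 8 macrophage markers went from 1.25 to 11 CPM up to 23 to 32 CPM, 7 of them higher. The 10 markers of arch mesenchyme went from 601 to 690 up to 748 to 875 CPM, 4 of them higher and 3 lower, and the 10 erythroid markers from 1811 to 7897 CPM at E9.0 to 5899 to 8405 CPM at E10.5. No marker of these lists was at 0 throughout either wildtype PA1 group. The part of these shifts in the changes of the glycolytic genes was not tested.

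Between the arches fewer members passed than between E9.0 and E10.5, and mostly before E10.0. The share of all genes that passed was also lower from E10.0 on. In wildtype, 8 rows differed between PA2 and PA1 at E9.0 (18.7% of all genes), 8 at E9.5 (26.3%), 2 by E10.0 (5.94%) and, at the last stage, 0 (1.52%). The counts with the label Hoxa2-/- were 9 (24.6%), 2 (9.58%), 0 (4.23%) and 0 (1.37%). At the 3 counts of 0, in the order named, 2, 5 and 1 members had an unadjusted p under 0.05 in limma's test, and edgeR called 0. With the embryo as a block, which uses that the arches came in pairs from the same embryos, the counts were 16 (22.8% of all genes), 18 (32.3%), 5 (9.48%) and 1 (2.28%) in wildtype. The block gave, with the label Hoxa2-/-, 13 (32%), 8 (15.9%), 3 (8.2%) and 0 (2.57%). Without the block the members' share was above that of all genes at E9.0 in wildtype (20% of 40 rows) and below it in the other 7 comparisons. With the block it was above that of all genes in 6 of the 8, and below it with the label at E10.0 and E10.5, so how the members compare with all genes here depends on the block. Fitted on the 2 compared groups alone, the counts were 4 at E9.5 and 2 at E10.5 in wildtype, and 2 at E9.0 and 1 at E9.5 with the label, and edgeR gave 7 with the label at E9.5 and 1 in wildtype at E10.0.

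At E9.0 the same few genes stood apart in PA2 under both labels. Eno2, the neuronal enolase, was 1.83-fold higher in PA2 in wildtype and 1.88-fold higher with the label Hoxa2-/-, at 0.993 to 1.60 CPM in wildtype PA2 against 0.104 to 0.705 CPM in wildtype PA1. Neuron markers were higher in the same PA2 libraries. The 6 markers measured of 8 in that list summed to 100.4 to 196 CPM in wildtype PA2 at E9.0 against 34.8 to 52.7 CPM in PA1, and to 112 to 190 CPM against 36.7 to 49.5 CPM with the label, and none was at 0 throughout a group of E9.0. Of the 5 that were tested, 2 passed in wildtype, Isl1 and Tubb3, and 1 with the label, Isl1, which progenitors of heart and pharynx also make. The 10 markers of arch mesenchyme summed to less in PA2, at 377 to 454 CPM against 601 to 690 CPM in wildtype PA1 (7 of the 10 lower, 0 higher), and at 368 to 557 CPM against 549 to 661 CPM with the label (5 lower, 1 higher). The part of either shift in the arch differences was not tested. Bnip3l was at 268, 283, 262 and 288 CPM in wildtype PA2 and at 200.9 to 218 CPM in wildtype PA1, a difference of 0.38 (SE 0.10, limma's adjusted p = 0.0056), and of 0.42 with the label Hoxa2-/- (adjusted p = 0.0031). It was higher in PA2 in all 8 embryos of E9.0 with both arches. Slc16a1 was lower in PA2 in all 8, with differences of -0.37 in wildtype and -0.36 with the label. The latter no longer passed without PA1 replicate 1 or PA2 replicate 3 (adjusted p = 0.058 and 0.052). Pfkp was 1.60-fold lower in wildtype PA2 (adjusted p = 0.012). With the embryo block, Slc2a1, Slc2a3, Pfkl, Pfkfb3 and Slc16a3 also passed in wildtype, lower in PA2 by 0.56, 0.59, 0.37, 0.47 and 0.30, and Adm, Pfkfb4 and Vegfa were higher.

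Aldoc, Mxi1 and Hk2 also passed at E9.0 under both labels. Aldoc was higher in PA2 by 0.93 and 0.87, Mxi1 higher by 0.33 and 0.36, and Hk2 lower by 0.53 and 0.58. In wildtype these calls ended without PA2 replicate 5 for Aldoc (adjusted p = 0.050), without PA2 replicate 1 for Mxi1 (0.068), and for Hk2 without PA1 replicate 1, 2 or 5 or PA2 replicate 2, 4 or 5 (0.064 to 0.10). With the label Hoxa2-/-, Aldoc did not pass without PA2 replicate 1 or PA1 replicate 2 (0.054 and 0.092), and Hk2 without PA1 replicate 2 or PA2 replicate 4 (0.10 and 0.22). Egln1 and Adm were higher in PA2 labelled Hoxa2-/- by 0.81 and 0.63 (adjusted p = 0.043 and 0.040). Each of these 2 calls ended without any of 5 libraries, with adjusted p of 0.067 to 0.20 for Egln1 and 0.061 to 0.26 for Adm: PA2 replicate 1, PA1 replicates 3 and 4, with PA1 replicate 1 and PA2 replicate 3 for Egln1, and PA1 replicate 2 and PA2 replicate 4 for Adm.

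At E9.5 in wildtype, Hk1 was higher in PA2 by 0.72 (SE 0.17, limma's adjusted p = 0.00094), at 26.8, 29.5, 34.8 and 35.5 CPM against 14.1, 27.0, 11.5, 22.4 and 22.7 CPM in PA1. Gapdh was lower in PA2 by 0.34 (adjusted p = 0.0021) and was lower in PA2 in all 9 embryos of that stage with both arches. Aldoc was higher by 0.81 and Pfkfb4 by 0.44, and Tpi1, Ldha, Pgk1 and Slc16a1 were lower by 0.42, 0.38, 0.36 and 0.34. Each of these 6 calls ended without some single library. Aldoc ended without PA2 replicate 3 (adjusted p = 0.080) and Slc16a1 without PA2 replicate 5 (0.050). Tpi1, Ldha and Pgk1 ended without PA1 replicate 3 or PA2 replicate 5 (0.094 to 0.21), Ldha and Pgk1 also without PA1 replicate 1 (0.052 and 0.067), and Pgk1 without PA2 replicate 1 (0.065). Pfkfb4, at an adjusted p of 0.049, ended without any of PA1 replicates 1, 3 and 4 or any PA2 replicate (0.057 to 0.15). The count of 8 became 14 without PA1 replicate 5, 5 without PA1 replicate 1, 4 without PA1 replicate 3 and 3 without PA2 replicate 5. With the embryo block, Aldoa, Pgam1, Eno1, Gpi1, Pdk1, Pdk3, Higd1a and Slc16a3 were lower too, and Ldhb and Ddit4 higher. 

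At E9.5 with the label Hoxa2-/-, Slc16a1 was lower in PA2 by 0.32 and Mxi1 higher by 0.31, and Slc16a1 was lower in PA2 in all 9 embryos of that stage over both labels. The count of 2 became 8 without PA2 replicate 1, 5 without replicate 4 of either arch, and 1 without PA1 replicate 1 or 2 or PA2 replicate 5, where Slc16a1 ended (limma's adjusted p = 0.066 to 0.12). Without PA1 replicate 5 Mxi1 had an adjusted p of 0.052. With the embryo block Slc2a1, Slc2a3, Tpi1, Pdk1 and Pdk3 were lower in PA2 too, and Egln1 higher. At E10.0 in wildtype Eno2 was higher in PA2 by 0.85, where the neuron markers summed to 65.2 to 91.2 CPM in PA2 and 32.0 to 39.4 CPM in PA1, and Hk2 lower by 0.60, the latter with an adjusted p of 0.055 and 0.16 without PA1 or PA2 replicate 5.

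The order of Ldhb between the arches turned over during these days. At E9.0 it was higher in PA2, at 119, 95.1, 117 and 109 CPM against 54.2 to 78.9 CPM in PA1 of wildtype, and at 125, 109, 125 and 139 CPM against 35.5 to 72.2 CPM with the label Hoxa2-/-. The arches did not overlap under either label. The differences were 0.85 (SE 0.21, limma's adjusted p = 0.0021) and 1.07 (SE 0.22, adjusted p = 0.00020). At E10.5 it was lower in PA2, at 398, 435 and 465 CPM against 538, 601 and 559 CPM in wildtype, and at 367, 376 and 314 CPM against 528, 481 and 420 CPM with the label. The arches did not overlap there, but these differences of -0.39 and -0.43 did not pass (limma's adjusted p = 0.95 and 0.59), and the embryo block did not call Ldhb at E10.5 either. At E10.0 limma with the block called Ldhb lower in PA2 with the label, by 0.42 (adjusted p = 0.038, and 0.24 without the block). It did not call Ldhb in wildtype at that stage.

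Within embryos, Ldhb was higher in PA2 in 8 of 8 embryos at E9.0 (median ratio of PA2 to PA1 1.96) and 8 of 9 at E9.5 (1.47). It was higher in PA1 in 10 of 10 at E10.0 (0.773) and 6 of 6 at E10.5 (0.744). No other of the 40 rows was higher in PA2 in every embryo at E9.0 and higher in PA1 in every embryo at both later stages. How many of all genes have that order was not counted. Pfkp turned over the other way in most embryos. It was higher in PA1 in 7 of 8 embryos at E9.0 (median ratio of PA2 to PA1 0.658) and 8 of 9 at E9.5, and higher in PA2 in 7 of 10 at E10.0 and 6 of 6 at E10.5 (1.40). Bnip3 was higher in PA2 in 6 of 8 embryos at E9.0, and higher in PA1 in 7 of 9, 10 of 10 and 6 of 6 at the later stages. The difference itself, the PA2 change between E10.5 and E9.0 minus the PA1 change, was tested and came to -1.24 in wildtype (SE 0.33, limma's adjusted p = 0.018; 3.35% of all genes called) and -1.50 with the label Hoxa2-/- (SE 0.33, adjusted p = 0.0031; 7.33% of all genes called). Ldhb was the 1 member called in each, and the compared groups alone gave 4 in wildtype. The wildtype call ended without PA2 E10.5 replicate 1 or PA1 E10.5 replicate 2 (adjusted p = 0.058 and 0.053), and the count was 2 without PA2 E9.0 replicate 1, PA1 E9.0 replicate 5 or PA2 E10.5 replicate 2. With the label, the count was 2 without PA2 E9.0 replicate 1, 2 or 3, and the call of Ldhb held.

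Markers of heart muscle, a tissue known for its Ldhb, were high in the same PA2 libraries. The summed level of 9 cardiac markers was 1187, 38.4, 1074 and 1101 CPM in the wildtype PA2 libraries at E9.0, and 17.0 to 39.9 CPM in PA1. With the label Hoxa2-/- it was 1012, 567, 87.3 and 770 CPM in PA2 and 25.4 to 65.1 CPM in PA1. None of the 9 was at 0 throughout a group. In the 2 PA2 libraries of E9.0 with little of this RNA, Ldhb stood at 95.1 CPM (wildtype replicate 2) and 125 CPM (labelled Hoxa2-/-, replicate 3), above every PA1 library of that stage. The first of these is the library with 74780 CPM of erythroid markers, and the second had 4451 CPM of them, against 2116 to 2934 CPM in the other 3 of its group. At E10.5 the cardiac sum was 1.45 to 10.0 CPM in all groups. The part of these cells in the difference of Ldhb was not tested.

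**Figure D5:**
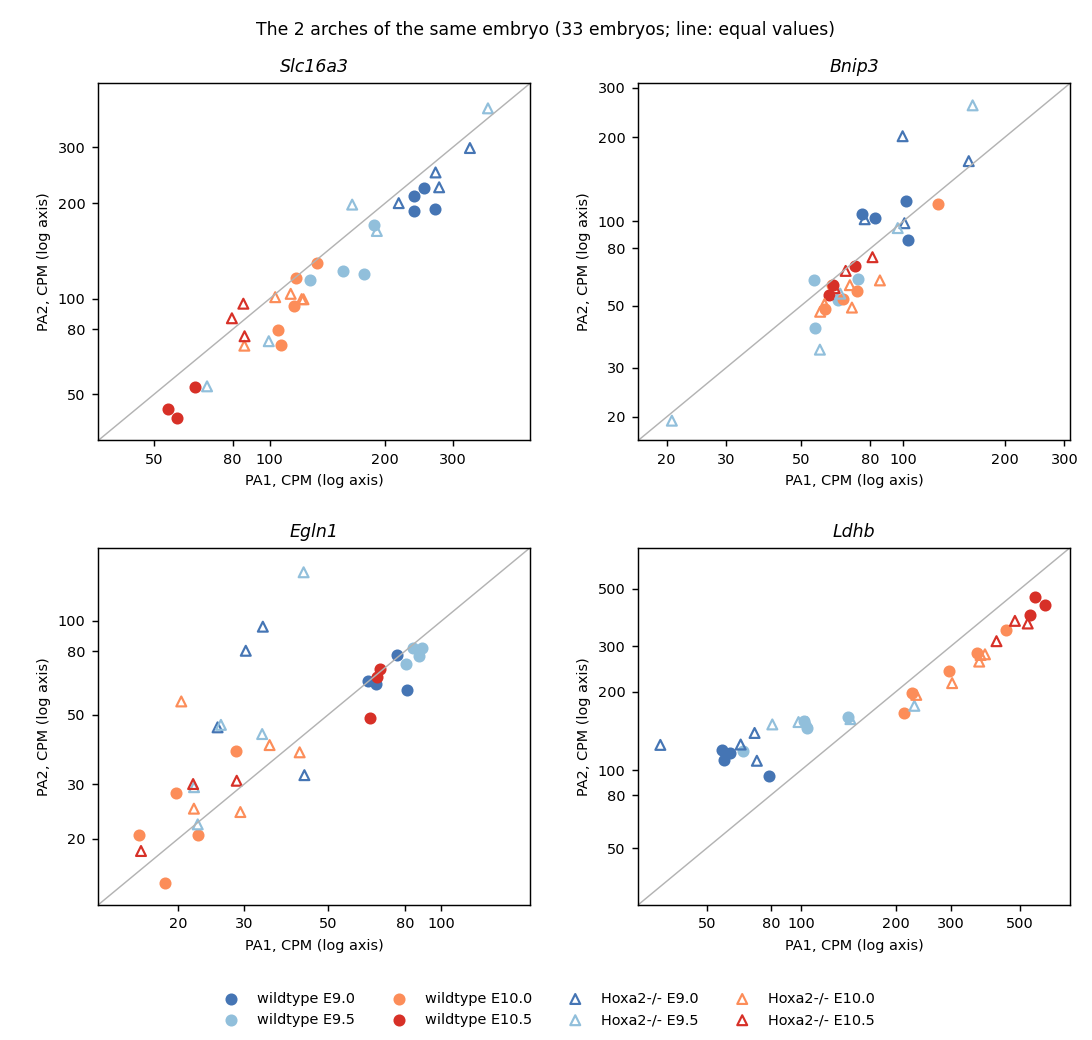
CPM of Slc16a3, Bnip3, Egln1 and Ldhb in the PA2 library (vertical axis) against the PA1 library (horizontal axis) of the same embryo, on log axes, 1 point for each of 33 embryos, with shape for the label, colour for the stage and a line of equal values. All Ldhb points of E9.0 lie above the line and all of E10.0 and E10.5 below it, and the Slc16a3 and Bnip3 points of Hoxa2-/- embryos at E9.5 spread farther along the line than those of any other stage and label.

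Between the labels, few members were called, and at E10.0 none was. At E10.0 limma called 0 members in PA1 and 0 in PA2, 0 and 1 members had an unadjusted p under 0.05, edgeR called 0 in each, and 0% and 0.0814% of all genes were called. At E9.0, 1 member was called in PA1 (2.08% of all genes) and 3 in PA2 (14%). At E9.5 there were 8 in PA1 (23.6%) and 1 in PA2 (4.48%), and at E10.5 there were 2 in PA1 (3.05%) and 5 in PA2 (10.3%). Fitted on the 2 compared groups alone, the counts at these 3 stages were 2, 4 and 5 in PA1 and 1, 0 and 6 in PA2. At these stages the label cannot be told apart from the division of the libraries named above.

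Egln1 (PHD2, ENSMUSG00000031987), the main oxygen sensor that marks HIF-1 alpha for destruction, showed the largest of these differences. In wildtype PA1 it stood at 63.7, 67.1, 68, 81.2 and 76.2 CPM at E9.0, at 88.9, 80.4, 87.1, 78.4 and 83.9 CPM at E9.5. At E10.0 it was down to 22.6, 18.5, 15.8, 19.8 and 28.5 CPM, and E10.5 libraries were at 67.3, 68.9 and 64.5 CPM. PA1 labelled Hoxa2-/- stood at 33.6, 43.3, 30.3 and 25.5 CPM, then 43.1, 33.5, 26.0, 22.6 and 22.1 CPM, then 20.4 to 42.1 CPM, and at E10.5 at 28.6, 21.9 and 16 CPM. The wildtype E10.0 libraries of both arches, at 14.5 to 38.2 CPM, thus lay below all 24 libraries of the other wildtype stages, at 48.7 to 88.9 CPM. In PA1 labelled Hoxa2-/- Egln1 was lower by 1.10 at E9.0 (SE 0.29, limma's adjusted p = 0.027), 1.52 at E9.5 (SE 0.27, adjusted p = 6e-05) and 1.59 at E10.5 (SE 0.35, adjusted p = 0.0050), and in PA2 by 1.21 at E10.5 (SE 0.35, adjusted p = 0.018).

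The Egln1 call at E9.5 held without each single library. At E9.0 it ended without wildtype replicate 3, 4 or 5 or labelled replicate 1, 3 or 4 (adjusted p = 0.055 to 0.10), and at E10.5 in PA1 without labelled replicate 3 (0.066). At E10.5 in PA2 it ended without wildtype replicate 1 or 2 or labelled replicate 3 (0.068 to 0.13). In PA2 labelled Hoxa2-/- at E9.0 and E9.5 Egln1 was scattered, at 95.9, 32.0, 80.3 and 45.6 CPM and at 143, 43.4, 46.4, 22.3 and 29.3 CPM, and did not pass there. Its fall of 1.15 from E9.0 to E10.5 in PA2 with that label (limma's adjusted p = 0.0056) ended without E10.5 replicate 3 (0.063).

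Pfkl was higher with the label Hoxa2-/- in PA2. It stood at 734, 670, 606 and 646 CPM in wildtype PA2 at E9.0 and at 1151, 1090, 1315 and 1017 CPM with the label, 1.72-fold higher (limma's adjusted p = 0.00024). At E10.5 it stood at 239, 276 and 311 CPM in wildtype and at 554, 567 and 554 CPM with the label, 2.03-fold higher (adjusted p = 5.1e-05). Neither stage overlapped between the labels, and both calls held without each single library. At E10.0, where wildtype lies on the same side as the labelled libraries, PA2 stood at 494 to 649 CPM in wildtype and at 523 to 637 CPM with the label. Hk2 at E10.5 in PA2 was likewise higher with the label, at 31.3, 38.7 and 40.03 CPM against 19.97, 20.6 and 16 CPM (log2 difference 0.92, SE 0.23, adjusted p = 0.0044).

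The other calls of the label were spread over several members, and most ended without some single library. In PA1 at E9.5, Gapdh was lower by 0.47 (limma's adjusted p = 1.6e-05) and Hk1 higher by 0.83 (adjusted p = 0.00011), and both held without each library. Pfkfb4 was higher by 0.57 there, Aldoc by 0.84 (0.052 without labelled replicate 5), and Slc2a3 by 0.72, P4ha2 by 0.66 and Hif1a by 0.28. Without labelled replicate 3, in which Slc2a3 stood at 2434 CPM, the adjusted p of Slc2a3 was 0.21 and that of P4ha2 0.33, and 5 calls were left. P4ha2 also ended without wildtype replicate 1 or 3 (0.057 and 0.079), and Hif1a without wildtype replicate 1, 3 or 4 or labelled replicate 1, 3 or 5 (0.070 to 0.14). In PA1 at E10.5, Slc16a1 was higher by 0.47, and ended without wildtype replicate 1, 2 or 3 or labelled replicate 2 or 3 (0.063 to 0.15).

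In PA2 at E9.0, Pfkp was higher with the label by 0.63 and Hk1 by 0.60. Pfkp ended without wildtype replicate 4 or 5 or labelled replicate 2 or 4 (limma's adjusted p = 0.074 to 0.14), and Hk1 without wildtype replicate 4 or 5 or labelled replicate 1 (0.052 to 0.091). The count of 3 was 5 without labelled replicate 3. At E9.5 in PA2, Gapdh was lower by 0.31, and ended without wildtype replicate 1 or 3 or labelled replicate 4 or 5 (0.051 to 0.12). The count was 2 without labelled replicate 1 or 4. At E10.5 in PA2, Hk1 was higher by 0.67 and Slc16a1 by 0.42. Hk1 ended without wildtype replicate 1 or labelled replicate 1 or 2 (0.070 to 0.18), and Slc16a1 without wildtype replicate 2 or 3 or labelled replicate 2 or 3 (0.063 to 0.14). The count of 5 was 3 without wildtype replicate 1 or 2 or labelled replicate 2 or 3.

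limma called 0 members for a difference of the label effect between the arches, and 0 for a difference between the labels in the change over the stages. From the earliest to the latest stage, the label effects gave 1, 1, 0 and 1 members at an unadjusted p under 0.05, edgeR called 0 at each stage, and 0%, 0.0109%, 0.0163% and 0.038% of all genes were called. The change over the stages gave 0 members at an unadjusted p under 0.05 in PA1 and 3 in PA2, edgeR called 0 in each, and 0.0163% and 0.591% of all genes were called. The fall of Slc16a3 thus measured 2.04 in wildtype PA1 and 1.68 with the label, values whose difference was not called.

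Within groups, the 2 arches of an embryo deviated together. Over the 33 embryos with both arches, the correlation between the PA1 and PA2 deviations from their group means was above 0 for all 40 rows, with a median Pearson r of 0.52, beside 0.22 over all 18428 genes tested. The points share the group mean that was subtracted and the embryo, so these values are a description. Slc16a3 had r = 0.94 and Spearman's rho = 0.78, Bnip3 0.88 and 0.68, and Pdk1 0.85 and 0.69. Without the 2 embryos farthest from the median these were 0.81, 0.71 and 0.68. Within the 11 wildtype embryos of the stages other than E10.0 they were 0.61, 0.26 and 0.57, and within the 22 others 0.95, 0.91 and 0.88, so for Bnip3 the relation was much weaker on the former side. The median over the 40 rows was 0.41 without the 2 farthest embryos, 0.42 in the 11 and 0.60 in the 22. These medians and the count of rows above 0 were not worked out for all genes, so they cannot be set beside them.

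Ankrd37 had r = 0.75, and 0.48 without the 2 farthest embryos, and among those 11 wildtype embryos -0.21. Ldhb had 0.63 and Gapdh 0.20. The embryo that lay highest was embryo 1 labelled Hoxa2-/- at E9.5, with Bnip3 at 161 CPM in PA1 and 260 CPM in PA2, Slc16a3 at 370 and 398 CPM and Egln1 at 43.1 and 143 CPM. Embryo 5 of the same group lay lowest for Bnip3, at 20.7 and 19.4 CPM. Wildtype embryo 3 at E10.0 also stood apart, with Bnip3 at 127 CPM in PA1 and 116 CPM in PA2, where the other 4 embryos were at 58.9 to 72.9 CPM and 48.7 to 59.3 CPM.

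The likeness of the members' deviations over the 68 libraries is given as a description, over libraries that share embryos and scaling. Whether the members form sets was not tested. By Pearson r, the members most like Bnip3 were Slc16a3 (r = 0.87, Spearman's rho = 0.63), Ankrd37 (0.84 and 0.60), Pdk1 (0.79 and 0.68) and Egln3 (0.74 and 0.62). Slc2a1 was most like Slc2a3 (0.86 and 0.67) and P4ha1 (0.83 and 0.62). The lowest values of Ldhb were with Pgam1 (r = -0.50), Slc16a1 (-0.49), Aldoa (-0.42) and Ldha (-0.39). Its highest were with Ddit4 (0.29), Mxi1 (0.20), Ankrd37 (0.14) and Pfkfb4 (0.12), so it did not run against every glycolytic member within groups.

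The stretches of 250 bases before the starts were searched for ACGTG and GCGTG on both strands, letters that also lie within CACGTG, the E-box of MYC and of circadian factors. RefSeq (GRCm38.p6) gave 52 such stretches for 36 of the 39 genes, with no entry for Slc2a3, Epas1 and Bnip3l. At least 1 match was present in 80.8% of the 52, and in 38.6% of the 32851 stretches of all genes. ACGTG was in 50% against 16.6%, GCGTG in 55.8% against 28.2% and CACGTG in 11.5% against 6.02%. The stretches of the members were also richer in G and C, with a median of 62.2% against 52.4%, and both motifs hold these bases. By gene, 33 of 36 had a match in at least 1 stretch. The 3 without a match were Eno2, Gpi1 and Tpi1, of which Gpi1 and Tpi1 fell in all 4 comparisons of E10.5 with E9.0. Ldhb, which rose, held a match 126 bases before its start. Slc2a1, Ldha and Slc16a3, which fell, held matches too, shown above. A match is a description of these letters, and binding was not measured.

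Other genes of the same pathways, from lists outside the 39, moved partly with them. In wildtype PA1, 21.5% of all genes fell and 21% rose between E9.0 and E10.5, and the shares for the other 3 comparisons are given above. Of 23 further genes of glycolysis and gluconeogenesis, 8 fell and 4 rose in wildtype PA1, with a median difference of -0.15 (9 and 3 in wildtype PA2, 7 and 5 in PA1 and 9 and 2 in PA2 labelled Hoxa2-/-). The insulin-responsive carrier Slc2a4 rose by 1.94 and the lactate and pyruvate carrier Slc16a7 by 1.13, and Gpd2, of the glycerol phosphate shuttle, fell by 0.99. Of 16 genes of pyruvate oxidation and the pentose phosphate pathway, 8 rose and 3 fell in wildtype PA1, with a median of 0.18. In wildtype PA2, and in PA1 and PA2 labelled Hoxa2-/-, 5, 6 and 4 rose and 3, 3 and 1 fell. Mpc1 and Mpc2 together form the mitochondrial pyruvate carrier. They rose by 1.29 and 0.92 in wildtype PA1 and by 0.80 and 0.51 in wildtype PA2. Pdp1 and Pdp2, the phosphatases that undo the action of the Pdk kinases, rose by 1.01 and 1.04 in wildtype PA1. In wildtype PA2 these phosphatases rose by 0.41 and 1.07. Dlat, a subunit of pyruvate dehydrogenase, fell by 0.59, 0.26 and 0.37 in wildtype PA1, wildtype PA2 and PA1 labelled Hoxa2-/-. Its difference of -0.07 in PA2 with that label did not pass (limma's adjusted p = 0.63). Of 38 further hypoxia pathway genes, 13 fell and 6 rose in wildtype PA1, with a median of -0.12. In wildtype PA2, and in PA1 and PA2 labelled Hoxa2-/-, 12, 14 and 10 fell and 7, 3 and 7 rose. Cited2, which competes with HIF for its coactivator, fell by 1.99, Stc2, a secreted glycoprotein, by 1.69, and Flt1, a VEGF receptor, by 1.57 in wildtype PA1. Angptl4, an inhibitor of lipoprotein lipase that HIF can induce, rose by 1.73 (limma's adjusted p = 3.5e-11), from a mean of 13.8 to 48.0 CPM, and by 1.77 in wildtype PA2 and 1.47 and 1.83 in PA1 and PA2 labelled Hoxa2-/-.

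Of 11 regulators, 7 fell and 1 rose in wildtype PA1, with a median of -0.58, 4 fell and 1 rose in wildtype PA2, and with the label 6 fell and 1 rose in PA1 and 3 fell and 4 rose in PA2. Lin28a, an RNA-binding protein of early embryos that blocks let-7, fell by 4.67 on the log2 scale, from a mean of 180 CPM to 6.36 CPM. Its differences were -3.97 in wildtype PA2, and -2.98 and -2.11 in PA1 and PA2 labelled Hoxa2-/-, all past the threshold. Myc fell by 1.94 and Mycn by 1.47 in wildtype PA1. In wildtype PA2 and PA1 labelled Hoxa2-/- Myc fell by 0.83 and 1.32. Its difference of -0.39 in PA2 with that label did not pass (limma's adjusted p = 0.18). Mycn fell by 1.46, 1.27 and 1.11 in these 3. Lin28b fell by 1.43 in wildtype PA1 and rose by 0.98 in PA2 labelled Hoxa2-/-. Its difference of -0.22 in wildtype PA2 did not pass (limma's adjusted p = 0.44).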

How the data were processed

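Polyadenylated RNA of single arches was amplified and sequenced, and reads were processed with bcl2fastq 2.18, TopHat2 2.1.1 and R 3.3.2 on mm10, per the submitters' processing notes, which give no roles. The counting program, annotation and strandedness are not given in the sources used here, so antisense or overlapping reads cannot be told apart. The deposited signal of each gene is a CPM value over library sizes scaled by the authors, with column totals of 926298 to 1051959 over 21948 identifiers. All values were whole multiples of 1 read within 0.1 reads, which recovered counts of 8912251 to 20619153 reads per library. A count of 0 allows up to 3 reads, 0.328 CPM at the lowest depth, for counting error only.

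Group means of log2(CPM + 1) over all 68 libraries were compared with limma 3.58.1 (R 4.3.3, trended variance) on the 18428 genes with at least 1 CPM in at least 3 libraries, with Benjamini-Hochberg adjustment over all of them at 0.05. Adjusted p-values in the text without a tool's name are from this fit. Groups came from the labels, and each library of a group is from its own embryo. The series text ties PA1 and PA2 to embryos, and the deviations of 33 such pairs from their group means had a median correlation of 0.35, with 30 above 0.1. The embryo block was therefore an alternative for the arches. The others were edgeR 4.0.16 (quasi-likelihood, recovered counts), a pseudocount of 0.25 or 5 in place of 1, scaling by median of ratios, no filter or one at 5 CPM, a fit of the compared groups only, and leaving out each library.

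The members and lists were chosen with earlier results of these data known. All members could be named. Those with the largest differences past the threshold, up to 6 in each direction, were described in full, and from each further list up to 5 genes past the threshold with a mean of at least 5 CPM and the largest differences. Promoter stretches are RefSeq's (GRCm38.p6), matched by symbol for 36 of 39 genes. Some genes of the further lists, among them Hk3, Fbp1, Ldhc, Pck1 and Ero1a, and the markers Nppa, Elavl3 and Stmn3, were not analysed here. The code was tested on simulated data.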

Additional observations from a re-analysis of the deposited data

Results flagged for a closer look

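For 10 of the genes each group of 4 or 5 libraries was checked for a library far from the rest, its gap to the nearest other library being more than 0.829 (4 libraries) or 0.710 (5 libraries) of the group's range. For a single check chance gives about 1 in 20, and 14 of 120 checks were past the limit. The checks share libraries and embryos, so their count cannot be set against that rate.

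In PA1 labelled Hoxa2-/- at E9.5, replicate 3 had Slc2a3 at 2430 CPM (others 416 to 967) and Epas1 at 35.4 CPM (others 4.96 to 7.52). The same library held 1370 CPM of epithelial, 432 CPM of endothelial and 6096 CPM of erythroid markers, and their part in these values was not tested. In PA2 with that label and stage, Egln1 was at 143 CPM in replicate 1 (others 22.3 to 46.4), Ddit4 at 8.49 CPM in replicate 3 (others 1.80 to 3.59) and Ldhb at 177 CPM in replicate 4 (others 150 to 157).

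Bnip3 was high in both arches of wildtype embryo 3 at E10.0, at 127 CPM in PA1 (others 58.9 to 72.9) and 116 CPM in PA2 (others 48.7 to 59.3). Hk2 was low in PA1 of that embryo, at 49.0 CPM (others 54.4 to 56.2). Slc16a3 was at 170 CPM in wildtype PA2 E9.5 replicate 3 (others 115 to 123) and at 71.1 CPM in PA2 labelled Hoxa2-/- E10.0 replicate 2 (others 99.5 to 104). At E9.0 in wildtype, Ldha was at 5600 CPM in PA2 replicate 1 (others 6270 to 6370), Ldhb at 78.9 CPM in PA1 replicate 2 (others 54.2 to 59.3) and Epas1 at 10.9 CPM in PA1 replicate 4 (others 4.34 to 4.92). Ddit4 was at 3.44 CPM in PA1 labelled Hoxa2-/- E9.0 replicate 2 (others 0.996 to 1.30).

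The rise of Ldhb over the stages differed between the arches. The PA2 rise minus the PA1 rise was -1.24 on the log2 scale in wildtype and -1.50 with the label Hoxa2-/-, both past the threshold in limma's test of the difference.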

How the results depend on the processing

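No result changed its direction in a called value under the alternatives run. The counts for E10.5 against E9.0 stayed within 24 to 26 and 22 to 25 in wildtype PA1 and PA2, and 23 to 26 and 26 to 28 with the label Hoxa2-/-, when a library was left out. Fitted on the 2 compared groups alone, counts of members were 0, 1, 0, 1 and 1 for the steps from E9.0 to E9.5 and E9.5 to E10.0 in PA1 labelled Hoxa2-/- and E9.0 to E9.5, E9.5 to E10.0 and E10.0 to E10.5 in PA2. They were 4 and 2 between the arches in wildtype at E9.5 and E10.5, and 2 and 1 with the label at E9.0 and E9.5. For the label they were 2, 4 and 5 in PA1 at the stages other than E10.0, and 1 and 0 in PA2 at E9.0 and E9.5. For the wildtype difference of stages between the arches the count was 4. edgeR gave 9 and 13 for PA2 labelled Hoxa2-/- from E9.0 to E9.5 and E9.5 to E10.0, 1 and 7 between the arches (wildtype E10.0, labelled E9.5), and 2 for the label in PA2 at E9.5. The replicate block by embryo gave 16, 18, 5 and 1 in wildtype and 8 and 3 with the label at E9.5 and E10.0. It ended no call of a named gene. A pseudocount of 5 gave 3 for wildtype PA1 from E9.0 to E9.5 and 2 for each difference of stages between the arches. No filter gave 3 for the former, and a filter of 5 CPM gave 2 for the wildtype difference and 1 between the arches in wildtype at E10.0. With a pseudocount of 0.25 the log2 ratio of Eno2 to Eno1 in wildtype PA1 was 1.71 higher at E10.5. The causes were not tested. Leaving out a library gave steps of 1 to 9 and 25 to 27 in wildtype PA1, 0 to 7 and 16 to 19 in wildtype PA2, 1 to 10, 5 to 15 and 0 to 1 in PA1 labelled Hoxa2-/-, and 3 to 25, 0 to 17 and 0 in PA2. Between the arches it gave 7 to 9, 3 to 14, 1 to 2 and 0 in wildtype and 6 to 10, 1 to 8, 0 and 0 with the label. For the label it gave 0 to 1, 5 to 12, 0 and 0 to 2 in PA1 and 1 to 5, 0 to 2, 0 and 3 to 5 in PA2, and for the differences of stages between the arches 0 to 2 and 1 to 2. Of single-gene calls, 12 no longer passed under edgeR, while 240 were unchanged. With the compared groups only, 70 no longer passed and 179 were unchanged. When a library was left out, a call was lost 310 times and unchanged 1720 times. Genes near 0.328 CPM, such as Adm and Eno2, are limited by depth.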

Other observations

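Each of the hexokinases Hk1 and Hk2 kept its own order between the arches in most embryos of each stage without passing at each stage. Hk1, the constitutive hexokinase, was higher in PA2 in 7 of 8 embryos at E9.0, 9 of 9 at E9.5, 9 of 10 at E10.0 and 4 of 6 at E10.5. Hk2, the inducible hexokinase, ran the other way and was higher in PA1 in 8 of 8, 8 of 9, 9 of 10 and 6 of 6. Whether these orders differ from those of other genes was not tested.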
